A study of Mus musculus with 5 samples.

Results

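The cytosolic ribosomal proteins are the proteins that, with ribosomal RNA, build the large and small subunits of the ribosomes that translate messenger RNA in the cytosol. They were taken from an array by gene name, as Rpl and Rps genes with a number, the stalk proteins Rplp0, Rplp1 and Rplp2, and Rpsa. This gave 84 genes, 52 of the large and 32 of the small subunit, out of 31829 gene names, and 176 of 39429 probes. A gene with several probes was represented by the one whose mean signal was highest. The RNA came from MIN6, an insulin-secreting line from a mouse insulinoma that stands in for beta cells, hybridised on 1-colour Agilent arrays with 1 array per sample. All samples had been incubated with exosomes, the small vesicles that cells release, purified from mouse muscle kept ex vivo. The EXO-HP samples (n = 3) were given exosomes from muscle of mice fed a high fat diet, and the EXO-STD samples (n = 2) exosomes from muscle of mice fed a standard diet. The labels give no dose, exposure time, strain or age, no culture without exosomes was analysed here, and the replicates are called biological without saying whether cultures or muscle donors were separate. P-values therefore measure the spread between these samples, which may in part be technical.

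All 15 beta cell markers checked were well above background on every array. Ins1, 1 of the mouse insulin genes, had normalised log2 signals of 7.56, 7.59 and 7.61 in EXO-HP replicates 1, 2 and 3, against 7.47 and 7.42 in EXO-STD replicates 1 and 2. A normalised log2 signal of 0 is the 75th percentile of an array's spots. EXO-HP replicate 1 shared slide 1 and scan 1 with both EXO-STD arrays, while the other EXO-HP arrays, replicates 2 and 3, made up slide 2 and scan 2. Signal was well above background at 74.0%, 91.6% and 81.6% of spots in EXO-HP replicates 1, 2 and 3, against 73.4% and 71.8% in EXO-STD replicates 1 and 2.

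Each ribosome holds 1 copy of most of its proteins, and a growing cell spends much of its transcription on them. Many of their messenger RNAs begin with a C and a run of pyrimidines, the terminal oligopyrimidine or TOP motif, which ties their translation to nutrient supply through the kinase complex mTORC1 and the RNA-binding protein Larp1. In beta cells the ribosomes on the endoplasmic reticulum make proinsulin, and their output responds to glucose in large part through translation. The arrays measure messenger RNA and not its translation.

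Annotated starts were found for 61 of the 84 genes (73 starts, RefSeq, GRCm38.p6), in windows of 300 bases that hold 250 before and 50 from the start. A TOP start, searched as a C at the first transcribed base followed by at least 4 C or T, was present at 13 of the 73 starts (17.8%), against 823 of 32851 starts of all genes (2.51%) and 0 of 75 starts of mitochondrial ribosomal protein genes. The following windows show the pyrimidine run, in capitals, from 10 bases before the start to 20 bases from it, in GRCm38.p6. Rpl15 at chr14:18270967-18270996 (minus strand) had the longest of these runs, 13 bases. Rpl35 (chr2:39005112-39005141, minus), Rps6 (chr4:86857348-86857377, minus), Rps27 (chr3:90213629-90213658, minus), Rplp2 (chr7:141447641-141447670, plus) and Rps21 (chr2:180257369-180257398, plus) are shown since their signals are described further on. Rpl4 (chr9:64173377-64173406, plus) and Rpl3l (chr17:24727816-24727845, plus), whose signals departed from those of most other members, had no TOP start at the annotated position. The same held for 48 of the 61 genes, and Rps21, which has a TOP start, also departed from most members.
Rpl15: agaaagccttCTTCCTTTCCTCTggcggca
Rpl35: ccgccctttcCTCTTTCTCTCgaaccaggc
Rps6: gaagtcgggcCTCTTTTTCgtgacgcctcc
Rps27: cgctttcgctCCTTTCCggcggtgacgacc
Rplp2: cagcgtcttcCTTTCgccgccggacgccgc
Rps21: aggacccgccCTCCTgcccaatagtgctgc
Rpl4: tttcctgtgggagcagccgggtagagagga
Rpl3l: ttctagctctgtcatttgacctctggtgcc

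Among other letters searched on both strands of the windows, CCGGAAG, the core bound by ETS-family factors such as GABP, lay in 26 of the 73 windows (35.6%), against 8.86% of all windows and 34.7% of those of mitochondrial ribosomal protein genes. CTCTTTCC, which can overlap a TOP start, lay in 13 windows (17.8%), against 3.12% of all windows and 1.33% of the mitochondrial ones. AAGATGG, the core bound by YY1, lay in 12 windows (16.4%), against 6.34% of all and 17.3% of the mitochondrial ones. A match describes these letters in this window and not a bound site.

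Probes entered the test when well above background on 2 or more arrays of the same group. By this filter 82 of the 84 genes were tested, 51 of the large and 31 of the small subunit, and 81 of them were well above background on all 5 arrays. By their mean signal, 78 of the 82 probes were in the brightest 10% of all tested probes. Rpl39l and Rps4y2 were too dim to test.

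No ribosomal protein gene passed the test between EXO-HP and EXO-STD cells, in either direction. With limma and Benjamini-Hochberg adjustment over 31943 probes, 0 of the 82 genes passed an adjusted p of 0.05 (background over all tested probes 0%), the smallest adjusted p of a member was 1.00, and the smallest over all probes was 0.813. At an unadjusted p under 0.05 the count was also 0 of 82, where the background was 5.60% (5.36% higher and 0.238% lower in EXO-HP). Log2 differences, EXO-HP minus EXO-STD, ran from -0.49 for Rps21 to 0.18 for Rpl7l1. Rpl10l was left out of this range, since it entered the test through EXO-HP alone. The median over the 82 genes was -0.07, against 0.07 over all tested probes. The difference was below 0 in 58 of the 82 genes (background 37.2%) and above 0 in 24, Rpl10l among them (background 62.8%). In bulk RNA, fewer cells of a type and less of an RNA per cell cannot be told apart.

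The 95% interval of the difference included 0 for all 82 genes and lay within 1 log2 unit on either side of 0 for 53 of them. The standard error of a member's log2 difference ran from 0.20 to 0.62 with a median of 0.34. Rpl4 was the only member with no overlap between the groups, its EXO-HP arrays being lower (background 2.76% lower and 15.1% higher). For those 53 genes a 2-fold change in either direction lay outside the interval, and for the rest it did not.

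**Figure D1:**
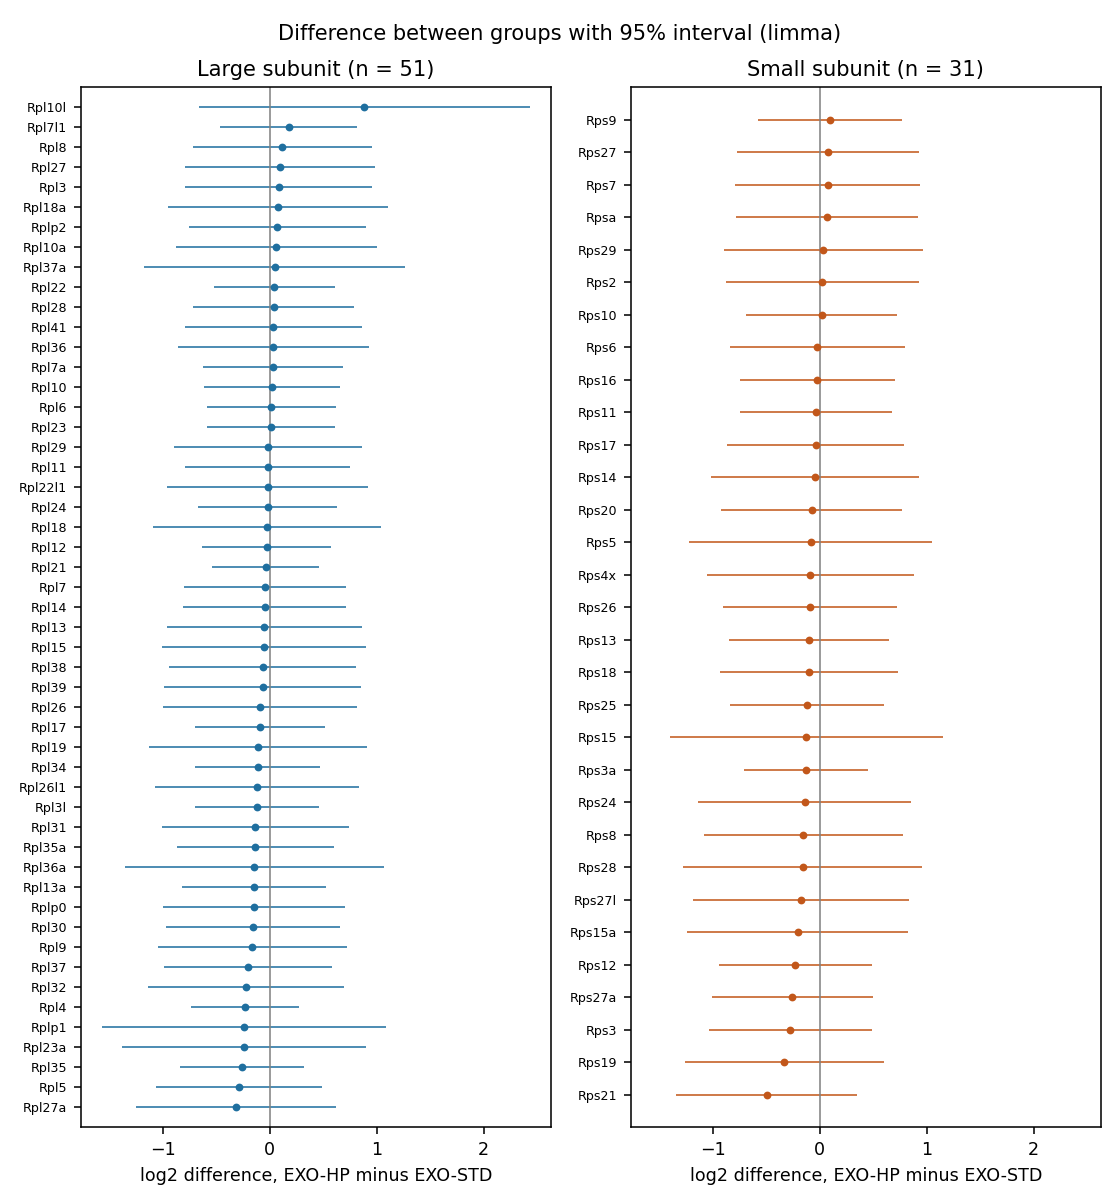
Log2 difference in normalised signal, EXO-HP (n = 3 arrays) minus EXO-STD (n = 2 arrays), for the 51 large and 31 small subunit genes tested. Points are limma estimates and bars 95% intervals, all of which include 0. Rpl10l at the top left entered the test through EXO-HP alone, so its point and bar do not count as support for a difference.

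What the members shared was their order over the arrays. For each gene, the mean of the EXO-STD arrays was subtracted, and the median over the 82 genes was -0.28, 0.38 and -0.27 in EXO-HP replicates 1, 2 and 3, against 0.32 and -0.32 in EXO-STD replicates 1 and 2. EXO-HP replicate 2 and EXO-STD replicate 1 were thus high, the other 3 arrays were low, and both groups held arrays of either kind. Over all tested probes the same medians were 0.05, 0.18 and 0.06 in the EXO-HP replicates, against -0.00 and 0.00 in the EXO-STD replicates.

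Gene by gene, EXO-STD replicate 1 lay above EXO-STD replicate 2 in 81 of 82 members (background 49.7%). The gap between the EXO-STD arrays was larger than the difference between the groups in 80 of 82 members (97.6%, background 67.4%). Its median was 0.65 log2 units, against 0.36 over all tested probes, and the median range over the EXO-HP arrays was 0.72, against 0.53 over all tested probes. EXO-HP replicate 2 lay above both EXO-STD arrays in 41 members (background 49.8%) and below both in 2 (21.9%). EXO-HP replicate 1 lay below both in 29 members (background 20.6%) and above both in 0 (35.2%). EXO-HP replicate 3 lay below both in 28 (background 22.3%) and above both in 2 (38.4%). The members therefore differed more among arrays of the same label than between the labels.

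**Figure D2:**
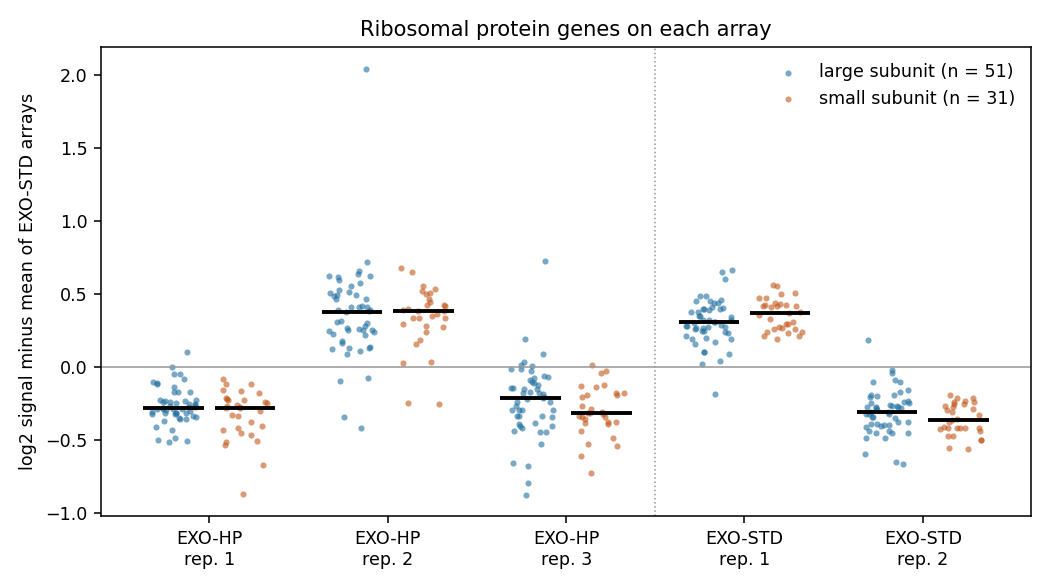
Log2 signal of each tested ribosomal protein gene on each array, minus the mean of the EXO-STD arrays for that gene. Points are genes (51 large subunit, 31 small subunit), thick lines are medians, and EXO-HP replicate 2 and EXO-STD replicate 1 sit above 0 while the other 3 arrays sit below; the 2 EXO-STD arrays mirror each other by construction.

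Other measures moved with the arrays in a similar order. The 10 probes for the spiked-in E1A control RNAs had a median normalised log2 signal of -1.09, -0.55 and -1.52 in EXO-HP replicates 1, 2 and 3, against -1.06 and -1.86 in EXO-STD replicates 1 and 2, so that EXO-HP replicate 2 and EXO-STD replicate 1 had the highest values there as well, with EXO-HP replicate 1 close behind. The brightest 10% of tested probes (3195) had medians of -0.15, 0.17 and -0.11 in the EXO-HP replicates, against 0.19 and -0.19 in the EXO-STD replicates, relative to the EXO-STD mean. Insulin probes, also bright, did not show this order: Ins2 had 7.73, 7.68 and 7.73 in the EXO-HP replicates, against 7.39 and 7.39 in the EXO-STD replicates. The part of spike-in amount, amplification or signal range in the order of the arrays was not tested.

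The order was also seen in probes that did not stand for a gene. The 91 other tested probes of these genes had medians of -0.29, 0.28 and -0.31 in the EXO-HP replicates, against 0.33 and -0.33 in the EXO-STD replicates. Of 54 genes with several tested probes, 10 had log2 differences between groups that ranged by more than 0.3 over their probes, and 20 had probes of both signs. Both counts include Rps27a, which had a dim probe that entered the test through EXO-HP alone.

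The median difference changed sign with the array left out. It was 0.27 without EXO-STD replicate 1, with 76 of 82 genes higher in EXO-HP, and -0.38 without EXO-STD replicate 2, with 80 of 82 genes lower. Without EXO-HP replicate 1, 2 or 3 it was 0.03, -0.27 and 0.04. With the slide as a block, which in effect sets EXO-HP replicate 1 against the EXO-STD arrays of slide 1, it was -0.28, with 81 of 82 genes lower; slide 2 holds EXO-HP arrays alone and gives no value. No member passed the adjusted threshold in any of these fits.

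**Figure D3:**
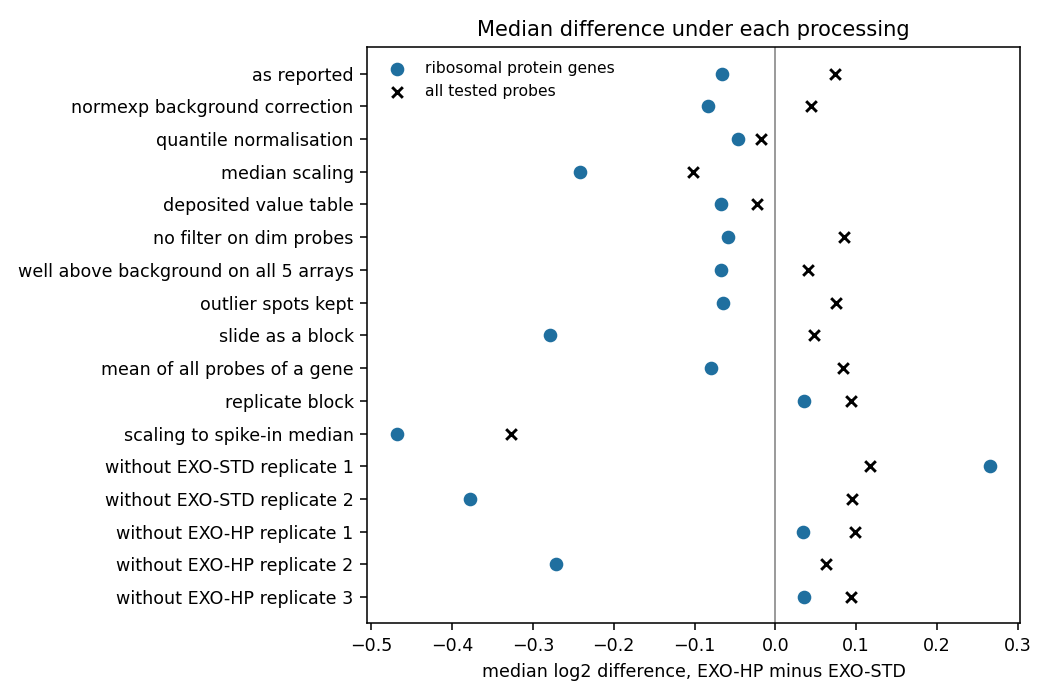
Median log2 difference, EXO-HP minus EXO-STD, of the tested ribosomal protein genes (circles) and of all tested probes (crosses) under each processing. The ribosomal median was -0.07 as reported and ran from -0.47 with scaling to the spike-in median to 0.27 without EXO-STD replicate 1.

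Large and small subunit genes moved together over the arrays. The large subunit median was -0.28, 0.37 and -0.22 in EXO-HP replicates 1, 2 and 3, against 0.31 and -0.31 in EXO-STD replicates 1 and 2. The small subunit median was -0.28, 0.38 and -0.31 in the EXO-HP replicates, against 0.37 and -0.37 in the EXO-STD replicates. Large minus small was -0.00, -0.01 and 0.10 in the EXO-HP replicates, against -0.06 and 0.06 in the EXO-STD replicates, so the values of the groups overlapped. The median difference between groups was -0.05 for the large subunit, with 17 genes higher, Rpl10l among them, and 34 lower. For the small subunit it was -0.09, with 7 higher and 24 lower. Over all tested probes 62.8% were higher and 37.2% lower.

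Rplp0, Rplp1 and Rplp2 form the stalk of the large subunit that recruits the translation factors which hydrolyse GTP. Rplp0 had 6.42, 6.95 and 6.29 in EXO-HP replicates 1, 2 and 3, against 7.10 and 6.30 in EXO-STD replicates 1 and 2 (log2 difference -0.15 ± 0.34, SE). Rplp2 had 6.03, 6.83 and 6.31 in the EXO-HP replicates, against 6.63 and 6.01 in the EXO-STD replicates (0.07 ± 0.33). Both followed the order of the list, and their groups overlapped. Rplp1 had 5.07, 5.73 and 4.44 in the EXO-HP replicates, against 5.97 and 4.67 in the EXO-STD replicates (-0.24 ± 0.53). Its EXO-HP arrays spread over 1.29 log2 units, and the interval, -1.57 to 1.09, reached furthest down of all members.

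Rpl4, which lines the tunnel through which the new protein leaves, departed from the list. Its probe (mm9 chr9:64026265-64026324, array design positions) had 4.95, 4.63 and 4.88 in the EXO-HP replicates, against 5.07 and 5.03 in the EXO-STD replicates. The EXO-HP arrays were all lower and did not overlap with the EXO-STD arrays, and EXO-HP replicate 2, high for most members, was the lowest here. The log2 difference was -0.23 ± 0.20 with an interval of -0.74 to 0.27 and an unadjusted p of 0.30. Under leaving out each array in turn it stayed between -0.29 and -0.14.

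Besides Rpl4, the large subunit genes with differences below 0 and the smallest p were Rpl27a, Rpl5 and Rpl35, of 34 below 0. Rpl27a had 5.15, 5.57 and 4.64 in the EXO-HP replicates, against 5.82 and 5.05 in the EXO-STD replicates (-0.32 ± 0.38). Rpl5, which carries the ribosomal RNA known as 5S and binds the p53 regulator Mdm2 when ribosome assembly is disturbed, had 3.66, 4.05 and 3.30 in the EXO-HP replicates, against 4.24 and 3.68 in the EXO-STD replicates (-0.29 ± 0.31). Rpl35, a protein at the tunnel exit whose TOP start is printed above, had 6.29, 6.52 and 6.27 in the EXO-HP replicates, against 6.84 and 6.38 in the EXO-STD replicates (-0.26 ± 0.23). In all 3 genes the EXO-STD arrays lay further apart than the group means, and the groups overlapped. Without EXO-STD replicate 1 the differences were 0.072 for Rpl27a, -0.013 for Rpl5 and -0.025 for Rpl35.

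The large subunit genes with the highest differences, apart from Rpl10l and Rpl7l1, were Rpl8 and Rpl27. Rpl8, near the catalytic centre of the ribosome, had 5.88, 6.69 and 5.95 in the EXO-HP replicates, against 6.33 and 5.79 in the EXO-STD replicates (0.12 ± 0.34). Rpl27 had 5.09, 6.08 and 5.49 in the EXO-HP replicates, against 5.72 and 5.19 in the EXO-STD replicates (0.10 ± 0.36). Both were highest in EXO-HP replicate 2 and followed the order of the list, except that Rpl27 was not low in EXO-HP replicate 3.

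In the small subunit, Rps21 had the smallest p of all members, an unadjusted 0.20 in limma. It had 3.60, 3.86 and 3.38 in the EXO-HP replicates, against 4.58 and 3.64 in the EXO-STD replicates (-0.49 ± 0.34). EXO-STD replicate 1 was the highest array and the other 4 were close together, and without it the difference was -0.02. Rps19, the gene most often mutated in Diamond-Blackfan anaemia in humans, had 3.37, 4.06 and 3.30 in the EXO-HP replicates, against 4.33 and 3.48 in the EXO-STD replicates (-0.33 ± 0.37). Rps3, at the channel where messenger RNA enters, had 4.57, 4.69 and 4.75 in the EXO-HP replicates, against 5.38 and 4.50 in the EXO-STD replicates (-0.27 ± 0.31). All 3 EXO-HP arrays of Rps3 lay between the EXO-STD arrays for this probe. Its other probes gave differences of -0.0015 and 0.12. The former, nearly as bright, followed the order of the list, with 4.15, 4.90 and 4.35 in the EXO-HP replicates, against 4.80 and 4.14 in the EXO-STD replicates.

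Rps27a is made as a fusion of ubiquitin and a small subunit protein. Its brightest probe lies in the sequence of the ribosomal part (mm9 chr11:29445914-29445973) and is printed since the gene had several probes.
Rps27a probe: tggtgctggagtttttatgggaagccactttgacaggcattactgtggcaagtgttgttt
It had 6.36, 6.95 and 6.23 in the EXO-HP replicates, against 6.98 and 6.56 in the EXO-STD replicates (-0.25 ± 0.30). Another bright probe of Rps27a gave -0.34. The last of its 3 probes was dim, with -5.67, -3.85 and -5.55 in the EXO-HP replicates, against -5.10 and -5.90 in the EXO-STD replicates. That probe entered the test through EXO-HP alone, so its difference is not given and does not count as support.

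Rps9, Rps27, Rps7 and Rpsa were the small subunit genes with the highest differences, between 0.07 and 0.10. Rps9, which helps the ribosome select the correct transfer RNA, had 5.55, 6.05 and 5.59 in the EXO-HP replicates, against 5.87 and 5.39 in the EXO-STD replicates (0.10 ± 0.27). Rps7, 1 of the proteins that bind Mdm2, had 4.21, 4.97 and 4.01 in the EXO-HP replicates, against 4.52 and 4.13 in the EXO-STD replicates (0.07 ± 0.35). Rpsa, also known as the laminin receptor, had 6.21, 6.89 and 6.26 in the EXO-HP replicates, against 6.75 and 6.02 in the EXO-STD replicates (0.07 ± 0.34). In each gene EXO-HP replicate 2 was the highest array. Rps6, the protein phosphorylated downstream of mTORC1, had 5.61, 6.28 and 5.51 in the EXO-HP replicates, against 6.09 and 5.55 in the EXO-STD replicates (-0.02 ± 0.33).

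Genes with and without a TOP start at the annotated base showed the same order over the arrays. The 13 genes with a TOP start had medians of -0.32, 0.39 and -0.30 in the EXO-HP replicates, against 0.29 and -0.29 in the EXO-STD replicates. The 47 tested genes with an annotated start and no TOP start had -0.28, 0.33 and -0.27 in the EXO-HP replicates, against 0.31 and -0.31 in the EXO-STD replicates. The difference between these sets was not tested. A pyrimidine run that began off the annotated base counted as no TOP start, as for Rpl18, whose run began at the next base. The set without a TOP start may therefore hold genes with TOP messenger RNAs.

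Several ribosomal proteins have a paralog with narrower expression, which can replace its counterpart in the ribosome. Rpl3l replaces Rpl3 in heart and skeletal muscle, and the exosomes had come from muscle. The probes of this pair, in mm9 positions of the array design, are printed because they cover matching stretches of the coding sequence. Capitals mark the overlap of 27 bases, in which 20 bases (74.1%) match. Rpl3l lies at chr17:24872413-24872681 and Rpl3 at chr15:79908489-79908772, each over an exon junction as its span exceeds the probe's 60 bases.
Rpl3l probe: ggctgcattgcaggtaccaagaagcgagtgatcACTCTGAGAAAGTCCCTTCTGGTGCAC
Rpl3 probe: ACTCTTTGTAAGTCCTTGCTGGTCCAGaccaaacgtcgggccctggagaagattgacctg
Rpl3l was well above background on all 5 arrays, with -5.62, -5.96 and -5.63 in EXO-HP replicates 1, 2 and 3, against -5.80 and -5.43 in EXO-STD replicates 1 and 2. These signals lay near the floor. The lowest values well above background were -6.39, -6.97 and -7.21 in EXO-HP replicates 1, 2 and 3, against -6.47 and -6.14 in EXO-STD replicates 1 and 2. The groups of Rpl3l overlapped. The order of the arrays was opposite to that of most members, with EXO-HP replicate 2 lowest, but was read from these low signals. The log2 difference of Rpl3l was -0.12 ± 0.23, with an interval of -0.70 to 0.46. It was -0.83 with quantile normalisation, -0.40 in the deposited value table and 0.067 without EXO-STD replicate 2. Rpl3 had 4.83, 5.49 and 4.67 in the EXO-HP replicates, against 5.25 and 4.57 in the EXO-STD replicates (0.08 ± 0.35).

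Skeletal muscle markers were read beside Rpl3l. Of 20 markers, 16, 18 and 14 were well above background in EXO-HP replicates 1, 2 and 3, against 13 and 11 in EXO-STD replicates 1 and 2. The log2 difference was above 0 in all 15 that were tested (background 62.8%), with a median of 0.51, against 0.07 over all tested probes. None passed the adjusted threshold (smallest adjusted p 0.884, limma). Relative to the EXO-STD mean, their median was 1.18, 0.45 and 0.10 in the EXO-HP replicates, against -0.04 and 0.04 in the EXO-STD replicates, an order that Rpl3l did not show. Mylpf, a fast muscle myosin light chain, had -5.49, -5.37 and -5.83 in the EXO-HP replicates, against -6.76 and -6.56 in the EXO-STD replicates. Atp2a1, the calcium pump of fast muscle, had -0.65, -0.75 and -0.67 in the EXO-HP replicates, against -1.04 and -1.35 in the EXO-STD replicates. Mylpf and Des were well above background on no EXO-STD array, and Ckm and Mb on 1. These genes entered the test through EXO-HP alone, so none of them counts as support for a difference. The count above 0 and the medians of the list include them, and do not count as support either. The part of muscle RNA in any value was not tested. The muscle myosin genes Myh1 and Myh4 and the myosin light chain Myl1 were too dim to test.

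Rpl10l is a paralog of Rpl10 expressed in testis, where it stands in for the X-linked Rpl10 during male meiosis. Its probe (mm9 chr12:67384868-67384927) and that of Rpl10 (mm9 chrX:71518307-71518366) read different stretches of the coding sequence and are shown so that the pair can be told apart.
Rpl10l probe: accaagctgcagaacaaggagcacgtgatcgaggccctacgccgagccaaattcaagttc
Rpl10 probe: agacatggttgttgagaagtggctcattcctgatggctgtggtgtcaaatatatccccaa
Rpl10l had -6.16, -4.00 and -5.32 in the EXO-HP replicates, against -6.00 and -6.08 in the EXO-STD replicates. It was well above background on 2 of the 3 EXO-HP arrays and on neither EXO-STD array, so it entered the test through EXO-HP alone, and no fold is given. Rpl10l did not pass the adjusted threshold in limma. EXO-HP replicate 1, on the slide of the EXO-STD arrays, was the lowest array, and with the slide as a block the fitted difference fell below 0. Rpl10 had 7.03, 7.45 and 7.10 in the EXO-HP replicates, against 7.41 and 6.93 in the EXO-STD replicates (0.03 ± 0.25).

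The other paralogs were compared with their counterparts over the arrays. Rpl7l1, a nucleolar protein related to Rpl7, had -1.62, -1.09 and -1.48 in the EXO-HP replicates, against -1.38 and -1.77 in the EXO-STD replicates (0.18 ± 0.26), and the difference for Rpl7 was -0.04 ± 0.30. Rpl22l1, whose messenger RNA is held down by Rpl22 in mouse cells, had 4.01, 5.04 and 4.23 in the EXO-HP replicates, against 4.71 and 4.19 in the EXO-STD replicates (-0.02 ± 0.38), and the difference for Rpl22 was 0.04 ± 0.23. Neither member of these pairs had groups that stood apart.

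Rpl26l1 had 2.69, 3.33 and 2.40 in the EXO-HP replicates, against 3.32 and 2.53 in the EXO-STD replicates (-0.12 ± 0.38), and the difference for Rpl26 was -0.09 ± 0.36. The probe named Rpl26l1 was not matched to a RefSeq gene, so its identity as a paralog rests on the array's gene name. Rps27l, a target of p53, had 4.05, 4.93 and 4.02 in the EXO-HP replicates, against 4.92 and 4.09 in the EXO-STD replicates (-0.17 ± 0.41). Rps27 had 5.34, 6.22 and 5.68 in the EXO-HP replicates, against 5.96 and 5.38 in the EXO-STD replicates (0.08 ± 0.34), but its other probe gave -0.40. In these pairs paralog and counterpart shared the order of the list, except that Rps27 was not low in EXO-HP replicate 3.

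Rpl39l, a testis-enriched paralog of Rpl39, was well above background on 1 EXO-HP array and on neither EXO-STD array, and no fold is given. Its counterpart Rpl39 had 4.72, 5.58 and 5.11 in the EXO-HP replicates, against 5.60 and 4.80 in the EXO-STD replicates (-0.07 ± 0.37). Rps4y2, which RefSeq now names Rps4l, was well above background on 1 array of each group. Rps4x, the X-linked counterpart, had 4.19, 4.85 and 4.09 in the EXO-HP replicates, against 4.94 and 3.99 in the EXO-STD replicates (-0.09 ± 0.39).

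**Figure D4:**
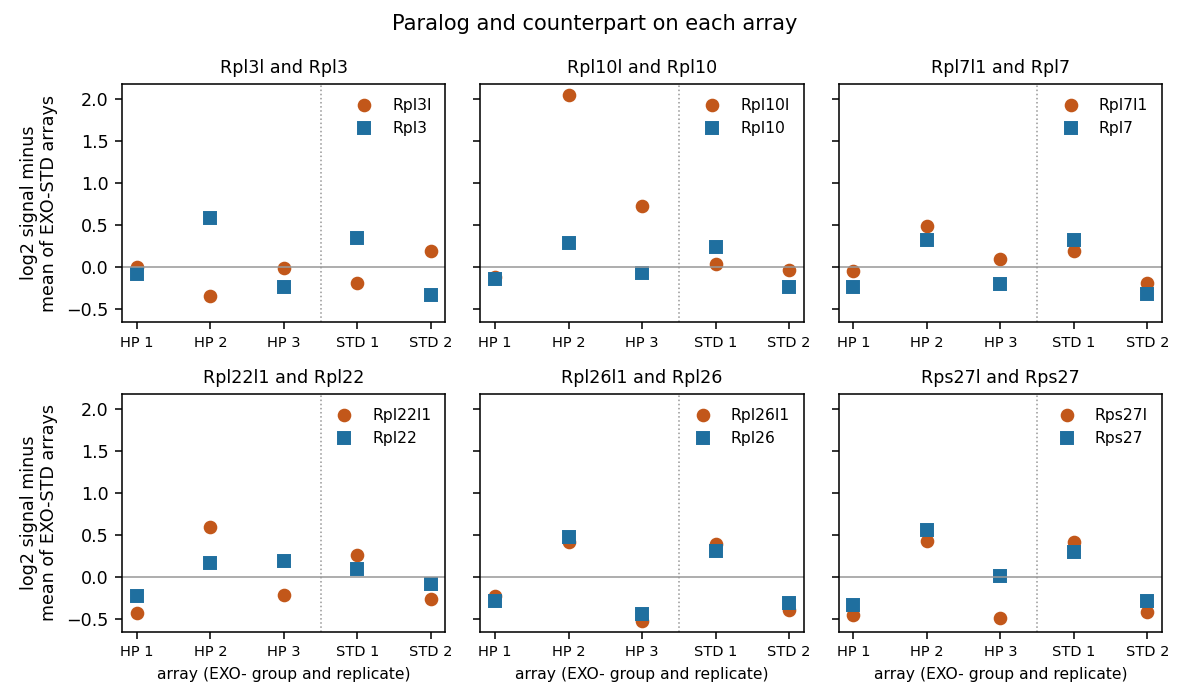
Log2 signal of 6 paralogs (circles) and their counterparts (squares) on each array, minus the mean of the EXO-STD arrays for that gene; HP 1 to HP 3 are EXO-HP replicates and STD 1 and STD 2 are EXO-STD replicates. Rpl3l lies low in EXO-HP replicate 2, where Rpl3 lies high. Rpl10l is highest there but was not well above background in EXO-STD, so its height is not read as a fold.

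The rest of the translation machinery was read from lists chosen by function. Fau, Gnb2l1 and Rpl36al are cytosolic ribosomal proteins with other names or a longer suffix, and none of the 3 passed the test. Their median was -0.24, 0.28 and -0.28 in EXO-HP replicates 1, 2 and 3, against 0.32 and -0.32 in EXO-STD replicates 1 and 2, which was the order of the 82 members. Gnb2l1, the scaffold protein Rack1 of the small subunit, had 6.06, 6.65 and 6.10 in the EXO-HP replicates, against 6.78 and 5.97 in the EXO-STD replicates (-0.10 ± 0.34). Rpl36al had 4.77, 5.12 and 4.64 in the EXO-HP replicates, against 5.31 and 4.72 in the EXO-STD replicates (-0.18 ± 0.28).

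The 75 mitochondrial ribosomal proteins, which build the separate ribosomes of the mitochondrion, had medians of -0.27, 0.31 and -0.18 in the EXO-HP replicates, against 0.28 and -0.28 in the EXO-STD replicates. EXO-STD replicate 1 lay above EXO-STD replicate 2 in 66 of the 75 (background 49.7%). Of the 75, 30 had differences above 0 (background 62.8%) and 45 below (background 37.2%), with a median of -0.04, and none passed the test. Mrpl19, a large subunit protein there, had -0.79, -0.93 and -1.14 in the EXO-HP replicates, against -0.59 and -0.40 in the EXO-STD replicates (-0.46 ± 0.21, unadjusted p 0.0768 in limma). Mrpl1 had -0.42, -0.48 and -0.74 in the EXO-HP replicates, against -0.16 and -0.16 in the EXO-STD replicates (-0.38 ± 0.20). In both genes the EXO-HP arrays were all lower, as was so in 3 of the 75 in total (background 2.76%).

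Elongation factors and other genes with TOP messenger RNAs (14 tested of 16) had medians of -0.13, 0.09 and -0.26 in the EXO-HP replicates, against 0.15 and -0.15 in the EXO-STD replicates. The 35 initiation factors had -0.05, 0.11 and -0.06 in the EXO-HP replicates, against 0.09 and -0.09 in the EXO-STD replicates. These lists showed the order of the ribosomal proteins with smaller steps, and 0 of 14 and 0 of 35 genes passed the test. Eef1e1, a subunit of the aminoacyl-tRNA synthetase complex, had -0.01, 0.14 and -0.18 in the EXO-HP replicates, against 0.39 and 0.19 in the EXO-STD replicates (-0.31 ± 0.21), and all its EXO-HP arrays were lower. Vim, the filament protein vimentin, whose messenger RNA has a TOP start, had -4.32, -3.78 and -4.35 in the EXO-HP replicates, against -4.22 and -4.79 in the EXO-STD replicates (0.36 ± 0.29). Eif5b, which joins the subunits at the end of initiation, had -5.19, -5.15 and -4.63 in the EXO-HP replicates, against -5.82 and -5.29 in the EXO-STD replicates (0.57 ± 0.29). All its EXO-HP arrays were higher, while the groups overlapped for Eif2b1, a subunit of the exchange factor for the initiation factor eIF2 (0.38 ± 0.27).

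Genes that make ribosomes did not show the order. The 63 ribosome assembly factors had medians of -0.02, -0.08 and -0.03 in the EXO-HP replicates, against -0.07 and 0.07 in the EXO-STD replicates, with 26 differences above 0 and 37 below. Nhp2, of the particles that modify ribosomal RNA, had 1.69, 2.97 and 2.15 in the EXO-HP replicates, against 2.59 and -3.99 in the EXO-STD replicates, so its difference of 2.97 ± 1.84 rests on EXO-STD replicate 2. Lsg1, a GTPase of late large subunit assembly, differed by 0.35 ± 0.25. RNA polymerase I and its cofactors (15 tested of 16), which transcribe ribosomal RNA, had 0.02, -0.01 and 0.16 in the EXO-HP replicates, against 0.03 and -0.03 in the EXO-STD replicates, with 9 differences above 0 and 6 below. Taf1a and Taf1c, subunits of its promoter factor, had estimates in opposite directions, -1.17 ± 0.70 and 0.27 ± 0.18. Taf1a had -6.09, -3.89 and -4.12 in the EXO-HP replicates, against -3.31 and -3.75 in the EXO-STD replicates, so its estimate rests in large part on EXO-HP replicate 1. The mTORC1 and TOP regulators (17) had 0.02, 0.04 and 0.05 in the EXO-HP replicates, against -0.00 and 0.00 in the EXO-STD replicates, with 9 above 0 and 8 below. For all these lists the background share of differences above 0 was 62.8%, and no gene of these lists passed the test. Akt1s1, the mTORC1 subunit also called Pras40, differed by 0.32 ± 0.26. Myc, a transcription factor that drives ribosome production, had -2.51, -2.53 and -2.27 in the EXO-HP replicates, against -2.23 and -2.16 in the EXO-STD replicates (-0.24 ± 0.20).

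**Figure D5:**
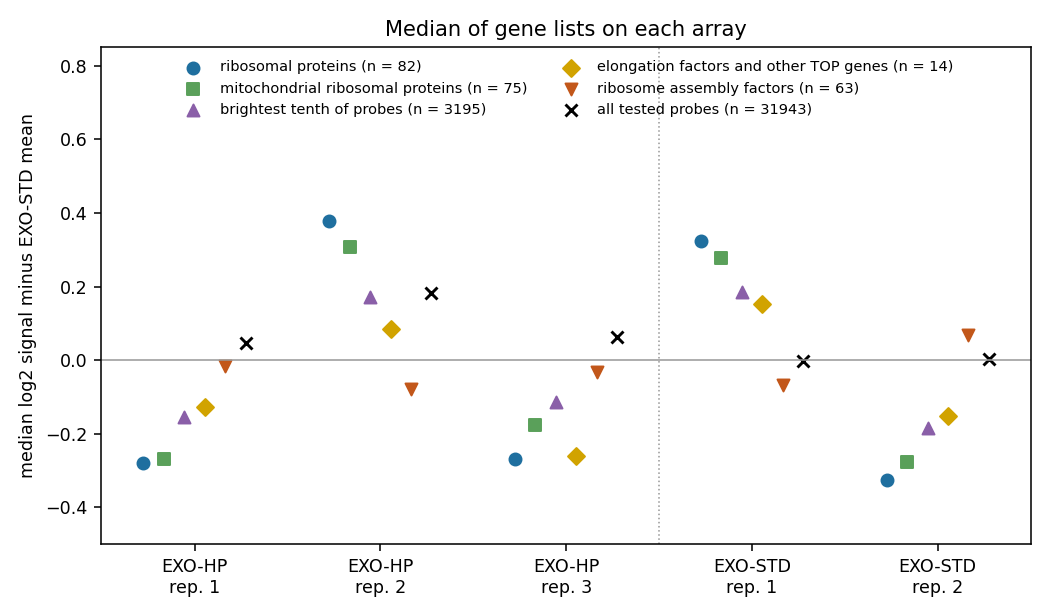
Median log2 signal of each list on each array, minus the mean of the EXO-STD arrays per probe. Cytosolic (n = 82) and mitochondrial (n = 75) ribosomal proteins and the brightest 10% of probes were high in EXO-HP replicate 2 and EXO-STD replicate 1, while ribosome assembly factors (n = 63) lay between -0.08 and 0.07 on all arrays.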

How the data were processed

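Per the file headers, the deposited scanner tables hold Cy3 spot intensity values extracted with Feature Extraction 10.7.3.1, background-subtracted and detrended; version 9.1 of that program, and limma, are named per the submitters' processing notes. The deposited value table holds log2 values with a median of 7.93 on every array, and its ranks equal those of the mean minus background signal (Spearman rho = 1); its columns had the same percentiles (largest gap to EXO-STD replicate 1 0.00049 log2 units), its genes were not centred, and it was used as an alternative. Here outlier spots were dropped, the log2 processed signals of a probe's spots were averaged, and arrays were aligned on their 75th percentile. No spot was saturated. Of 39429 probes, 7376 fell short of being well above background on 2 arrays of the same group, and 110 lacked a usable spot, which left 31943. EXO-HP was compared with EXO-STD in limma 3.58.1 (R 4.3.3, lmFit and eBayes, no covariates; 3 residual and 2.59 prior degrees of freedom), with Benjamini-Hochberg adjustment over all tested probes; values after ± are standard errors. The number of arrays limits the precision, and with 3 against 2 arrays no permutation test could pass 0.05.

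Of the 84 representative probes, 79 had accessions found in a RefSeq gene table (GRCm38.p6, names only), 78 with the same symbol. Probe positions are mm9, per the file headers. No fold is given where all arrays of a group failed the background criterion for a probe. Members and lists were chosen with earlier results of these data known. Named genes are the paralogs with their counterparts, the stalk proteins, Rpsa, up to 4 genes per subunit and direction with the smallest p, and the 2 of lowest p in each other list; Rpl15 and Rps6 were added after their values were seen. Alternatives covered background correction, scaling, the dim filter, outlier spots, slide, replicate number, probe choice and each array left out; scaling to spike-ins was added after seeing the data. A gene of the list of other cytosolic ribosomal proteins is not reported here, and the values of that list leave it out.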

Additional observations from a re-analysis of the deposited data

How the results depend on the processing

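No ribosomal protein gene passed the adjusted threshold under any of the 16 alternatives. The list median of -0.07 lay between -0.38 and 0.27 when each array was left out, the large subunit median between -0.34 and 0.27, the small subunit median between -0.47 and 0.27, and large minus small between -0.0012 and 0.13. The count of probes passing over the whole array was 0 to 3, and the 3 came without EXO-STD replicate 1. Median scaling moved all probes to -0.10 and scaling to the spike-in median moved them to -0.33. The large subunit median was -0.45 with scaling to the spike-ins. Both scalings shift all probes of an array by the same amount. Relative to all probes the ribosomal median therefore had to stay at -0.14, its value in the reported processing. It was -0.03 with quantile normalisation. Replicate numbers did not pair the arrays (correlations of deviations between -0.11 and 0.11), and with a replicate block the ribosomal median was 0.04, with 50 genes higher and 32 lower.

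Of the 30 named ribosomal genes tested, those that changed sign were, with normexp, Rpl22l1 (0.082), Rpl10 (-0.056) and Rpl22 (-0.0076), with quantile normalisation Rpl22l1 (0.019) and Rpl10 (-0.039), and with the deposited value table Rpl22l1 (0.12), Rpl10 (-0.13) and Rpl39 (0.015). With the mean of all probes they were Rps27 (-0.16) and Rpl27 (-0.0034). With median scaling they were Rpl7l1 (-0.00027), Rpl3 (-0.091), Rpl10 (-0.15), Rpl22 (-0.13), Rps27 (-0.099), Rplp2 (-0.11), Rpsa (-0.11), Rpl8 (-0.057), Rpl27 (-0.081), Rps9 (-0.077) and Rps7 (-0.10). With scaling to the spike-in median the same 11 had -0.23, -0.32, -0.38, -0.36, -0.33, -0.33, -0.33, -0.28, -0.31, -0.30 and -0.33 in that order. With the slide as a block they were Rpl7l1 (-0.048), Rpl3 (-0.081), Rpl10 (-0.14), Rpl22 (-0.23), Rps27 (-0.33), Rplp2 (-0.29), Rpsa (-0.18), Rpl8 (-0.17), Rpl27 (-0.37), Rps9 (-0.080), Rps7 (-0.12) and Rpl10l, for which no value is given. With the replicate block they were Rpl22l1 (0.081), Rpl26l1 (0.087), Rpl7 (0.040), Rpl22 (-0.032), Rpl26 (0.088), Rps4x (0.057) and Rplp1 (0.079). Median scaling and scaling to the spike-in median each moved all differences by the same amount, so small differences above 0 changed sign together. With the slide as a block, the values are in effect those of EXO-HP replicate 1 against the EXO-STD arrays. The cause of the other sign changes was not tested.

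When each array was left out, the differences ranged over -0.21 to 0.27 for Rpl10, -0.046 to 0.18 for Rpl22, -0.33 to 0.24 for Rpl22l1, -0.40 to 0.22 for Rpl26, -0.51 to 0.28 for Rpl26l1, -0.17 to 0.36 for Rpl27, -0.70 to 0.072 for Rpl27a and -0.25 to 0.42 for Rpl3. They ranged over -0.47 to 0.33 for Rpl39, -0.31 to 0.067 for Rpl3l, -0.37 to 0.28 for Rpl7, -0.017 to 0.37 for Rpl7l1, -0.15 to 0.39 for Rpl8, -0.55 to 0.25 for Rplp0, -0.89 to 0.41 for Rplp1 and -0.24 to 0.38 for Rplp2. They ranged over -0.76 to 0.099 for Rps19, -0.21 to 0.37 for Rps27, -0.59 to 0.25 for Rps27l, -0.72 to 0.17 for Rps3, -0.56 to 0.39 for Rps4x, -0.21 to 0.27 for Rps7, -0.14 to 0.34 for Rps9 and -0.30 to 0.43 for Rpsa. They ranged over -0.49 to -0.025 for Rpl35, -0.29 to -0.14 for Rpl4, -0.57 to -0.013 for Rpl5, -0.97 to -0.024 for Rps21 and -0.47 to -0.041 for Rps27a, with no change of sign, though all of these but Rpl4 came close to 0 without EXO-STD replicate 1. No range is given for Rpl10l, which entered the test through EXO-HP alone. Rpl3l was -0.83 with quantile normalisation, -0.40 in the deposited value table and -0.52 with scaling to the spike-in median.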

Other observations

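Markers of other cell types were read beside the beta cell markers, and no gene of these lists passed the adjusted threshold. Among the beta cell markers, 13 of 15 had differences above 0 (background 62.8%), with a median of 0.14, against 0.07 over all tested probes. Pcsk1, a convertase that cuts proinsulin, had 5.02, 4.86 and 5.10 in the EXO-HP replicates, against 4.81 and 3.86 in the EXO-STD replicates. The medians of the other lists are given relative to the EXO-STD mean. Other islet markers (5 tested) had medians of -0.29, 0.21 and 0.13 in the EXO-HP replicates, against -0.18 and 0.18 in the EXO-STD replicates. Acinar and duct markers (9 tested) had 0.09, 1.19 and 0.16 in the EXO-HP replicates, against 0.08 and -0.08 in the EXO-STD replicates. Fibroblast, endothelial and adipocyte markers (8 tested) had -0.01, 0.79 and 0.24 in the EXO-HP replicates, against -0.03 and 0.03 in the EXO-STD replicates. Macrophage and blood markers (6 tested) had 0.23, 0.90 and 0.02 in the EXO-HP replicates, against -0.01 and 0.01 in the EXO-STD replicates. In each of these lists EXO-HP replicate 2, the array with the largest share of spots above background, was the highest array. The acinar, fibroblast and macrophage list medians include genes that entered the test through EXO-HP alone. These medians therefore do not count as support for a difference.

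Among the genes of these lists with the smallest p, the log2 difference, EXO-HP minus EXO-STD with its standard error, was 0.52 ± 0.22 for Sst, 0.23 ± 0.23 for Ghrl, 0.72 ± 0.39 for Cela1, 0.75 ± 0.40 for Col1a2 and 0.56 ± 0.22 for Ptprc. Amy2a5, Dcn and Hbb-b1 were well above background on no EXO-STD array and entered the test through EXO-HP alone, so no difference is given for them.

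Rps15 showed the order over the arrays with a larger step down in EXO-HP replicate 1, having 3.61, 5.15 and 4.29 in EXO-HP replicates 1, 2 and 3, against 4.89 and 4.06 in EXO-STD replicates 1 and 2. Rpl21 had -1.88, -2.05 and -2.12 in the EXO-HP replicates, against -1.88 and -2.08 in the EXO-STD replicates, a narrow spread among the members. Both were chosen after their values were seen.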
